A study of Mus musculus with 12 samples.

Results

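The proteasome genes were the 46 genes of the count table whose symbol is Psma, Psmb, Psmc, Psmd, Psme, Psmf or Psmg followed only by a number, out of 14909 genes in all. The rule used names and no measured values, and it left out Psmc3ip, which encodes no proteasome component, and Psme2b, a processed copy of Psme2. All 46 had enough counts to be tested, as had 14274 genes in the whole table. The libraries came from the frontal cortex of C57BL/6 mice, 5 of them Upf3b-null (KO 1, 2, 3, 4 and 6) and 7 of them wild type (WT 1 to 7), with 1 library per mouse. Upf3b is an X-linked gene of nonsense-mediated mRNA decay, the pathway that degrades transcripts with premature stop codons, and the comparison asked which transcripts differ in cortex when it is missing. The labels give no treatment, and the mice's age, sex, breeding and the structure of the null allele were not stated there.

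The proteasome degrades proteins tagged with ubiquitin chains. Its core particle is a barrel of stacked rings, with outer rings of alpha subunits (Psma genes) that gate the entrance and inner rings of beta subunits (Psmb genes) that carry the proteolytic sites. A regulatory particle caps the barrel: its base holds ATPases (Psmc genes) that unfold substrates, and its lid holds a deubiquitinase and scaffold subunits (most Psmd genes). Other members replace, assemble or activate these parts, and in neurons the proteasome is known for its part in synaptic protein turnover.

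Upf3b itself had 12, 11, 24, 15 and 23 counts in KO 1, 2, 3, 4 and 6, against 157 to 219 counts in the WT libraries (median 182). KO libraries averaged 2.76 ± 0.877 CPM of Upf3b and WT libraries 38.3 ± 2.48 CPM (SD, n = 5 and 7; exact two-sided permutation test on log2 values, p = 0.00253, the smallest that 792 arrangements can give). CPM here are read counts divided by the TMM-scaled library total and put on the usual common scale. Library totals ran from 4990643 to 6617759 counts in KO and from 4684039 to 5425774 counts in WT, so that KO 1 alone among the KO libraries lay within the WT range. Markers of cortical glutamatergic neurons summed to 1297 to 1836 CPM in KO and 1552 to 1879 CPM in WT, so that the labelled tissue's markers were present in every library, and those of interneurons to 552 to 733 CPM in KO and 570 to 804 CPM in WT. WT 6 and WT 7 had the most similar counts, with a chi-square of 1.02 per degree of freedom where other pairs within a group had 1.18 to 7.18, and still entered as 2 libraries.

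Proteasome transcripts were lower in the KO cortex as a group of many small differences. By edgeR's quasi-likelihood test with Benjamini-Hochberg adjustment over all tested genes, 27 of the 46 genes (58.7%) fell and 0 rose, against 14.4% of all tested genes lower and 15.3% higher in KO. Among the 46, 0 genes with a positive fold change had an unadjusted p under 0.05, and 40 had a negative fold change, as had 43.8% of all tested genes. Their median log2 fold change was -0.16, beside 0.03 over all tested genes. The 27 differences were between -0.30 and -0.10 on the log2 scale, or -19.0% to -6.71%, with SE of 0.03 to 0.06. KO and WT levels did not overlap in 18 of the 46 genes (39.1%), all lower in KO, where 4.8% of all tested genes had this pattern and 5.84% the opposite one. DESeq2's Wald test called 28 of the 46 lower and 0 higher, beside 15.3% of all tested genes lower and 11.9% higher. The lower calls numbered 7 of 46 with offsets for the count density of genes, and 0 of 46 with the library total as a covariate, where 8.02% and 0.0771% of all tested genes were lower. In bulk tissue, fewer cells of a type that expresses these genes cannot be told apart from less RNA per cell.

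By the fit without offsets, 26 of the 27 genes that fell were subunits of the standard particle. Of the 31 constitutive genes of the alpha ring, beta ring, base and lid, 26 (83.9%) fell, with a median log2 fold change of -0.20. Of the 15 others (immunoproteasome subunits, chaperones, activators and a regulator), 1 (6.67%) fell, with a median of -0.04. The CPM of the constitutive genes summed to 2181 to 2418 in KO, with a mean of 2282 ± 87.6 (SD, n = 5), and to 2481 to 2703 in WT, with a mean of 2585 ± 87.4 (SD, n = 7). These sums did not overlap. Those of the 15 others did, at 569 to 593 CPM in KO and 562 to 640 CPM in WT. The contrast in medians between the constitutive genes and the others went away with density offsets and after adjustment for library totals. With density offsets their medians were -0.07 and -0.08, with 6 of 31 and 1 of 15 genes lower. Adjusted for library totals, the medians were -0.13 and -0.12. Offsets for the mean count of genes, added after the data were seen, kept the contrast in part. Their medians were -0.20 and -0.13, with 25 of 31 and 3 of 15 genes lower.

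**Figure D1:**
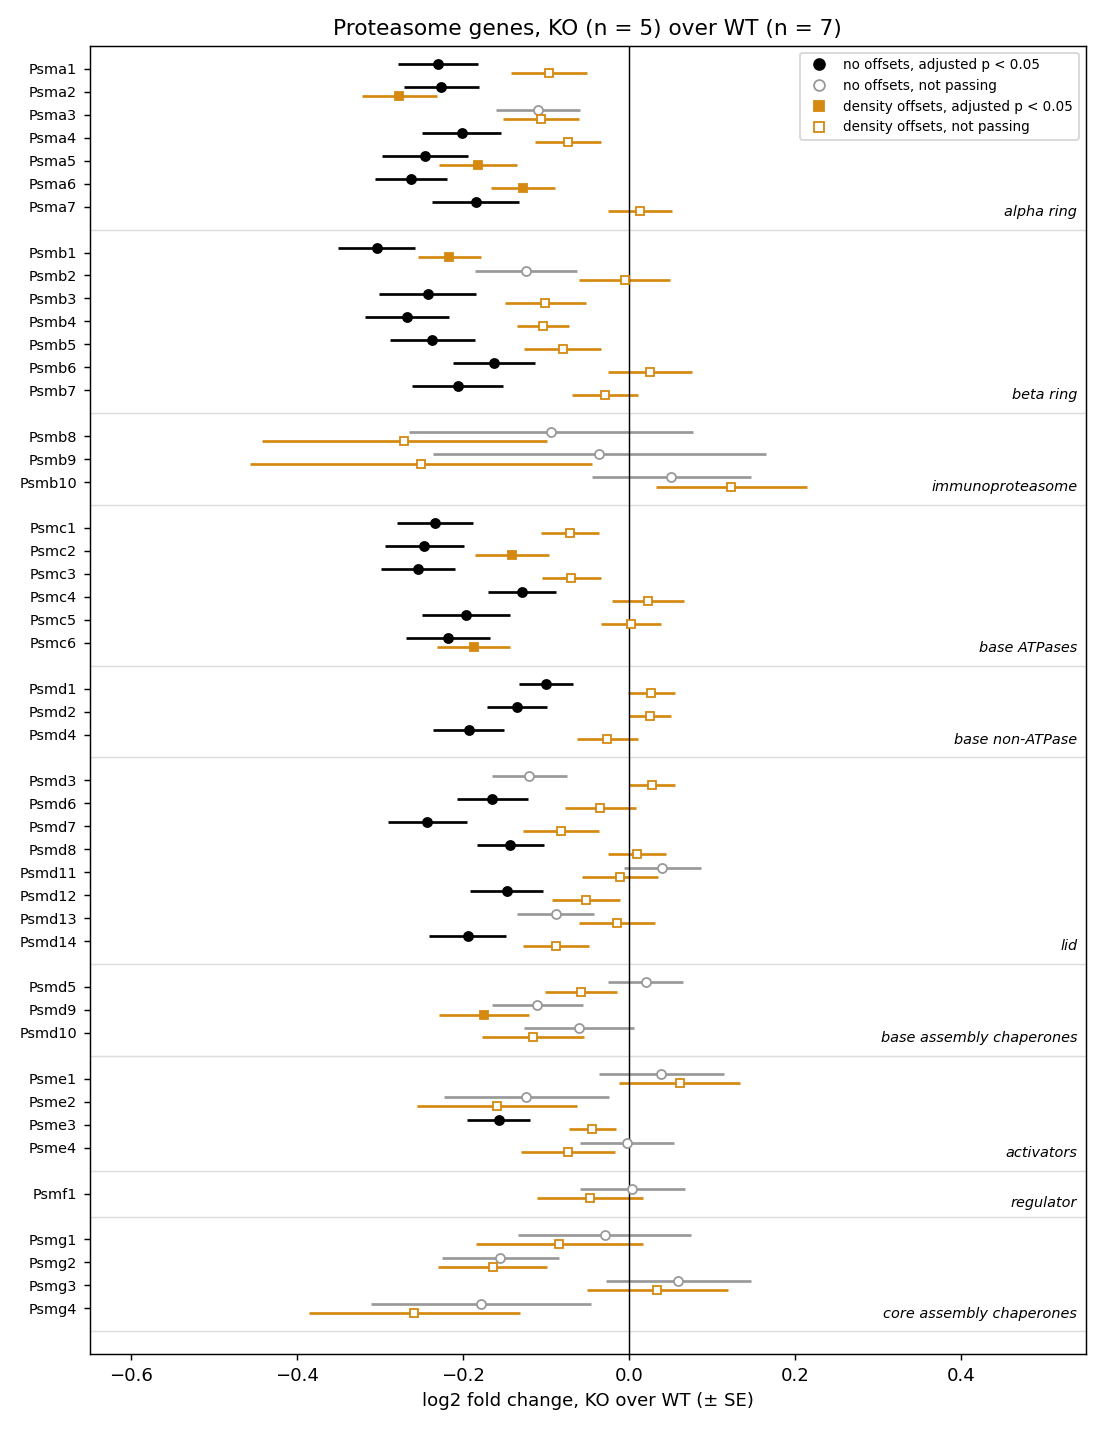
Log2 fold change of each proteasome gene, KO (n = 5) over WT (n = 7), with its SE, grouped by role from top to bottom. Circles are the fit without offsets (filled where the adjusted p is under 0.05) and squares the fit with offsets that remove the trend with count density. Filled circles lie left of 0 throughout the rings, base and lid, 26 of 31, and below them only Psme3 has one.

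The alpha ring forms the gate of the core particle, and 6 of its 7 measured genes fell. Values of the KO libraries are in the order KO 1, 2, 3, 4 and 6. Psma6 (chr12:55384222-55418454, plus strand, mm10) had 57.9, 52.1, 54.9, 54.5 and 52.7 CPM in KO, against 60.5 to 67.6 CPM (median 65.8) in WT, a log2 fold change of -0.26 ± 0.04 (SE; adjusted p = 8.41e-04). Psma2 (chr13:14613240-14674236, plus strand) had 48.7, 44.6, 46.3, 45.2 and 47.1 CPM in KO, against 50.7 to 58.2 CPM (median 53.7) in WT, a log2 fold change of -0.23 ± 0.05 (adjusted p = 0.00240). In both genes the highest KO library was below the lowest WT library, and KO 1 was the highest of the KO libraries. Psma1 averaged 56.7 ± 1.26 CPM in KO and 66.6 ± 4.04 CPM in WT (SD), with a log2 fold change of -0.23, and again the groups did not overlap. Psma5 averaged 39.7 ± 1.38 CPM in KO and 47.1 ± 2.81 CPM in WT (log2 fold change -0.25), where KO 1 at 42.1 CPM was just under the lowest WT library at 42.3 CPM. Psma4 and Psma7 also fell, with log2 fold changes of -0.20 and -0.18, but their KO 1 level was inside the WT range. Psma3 did not pass, at 67.0 ± 3.71 CPM in KO and 72.2 ± 4.09 CPM in WT (adjusted p = 0.113). Psma8, an alpha subunit of the testis, was not analysed here.

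The beta ring held the gene with the smallest adjusted p of all 46. Psmb1 (chr17:15475021-15499751, minus strand), a subunit without a proteolytic site, had 69.3, 61.3, 64.8, 60.9 and 60.3 CPM in KO, against 75.7 to 83.2 CPM (median 76.1) in WT. Its log2 fold change was -0.30 ± 0.05 (SE; adjusted p = 5.33e-04), with every KO library below every WT library. Psmb4 (chr3:94884093-94886961, minus strand), also structural, had 76.7, 62.5, 64.5, 63.8 and 67.0 CPM in KO, against 75.6 to 82.4 CPM (median 81.1) in WT (log2 fold change -0.27 ± 0.05, adjusted p = 0.00175). Here KO 1 lay inside the WT range and the other KO libraries below it. Psmb3 averaged 38.2 ± 2.20 CPM in KO and 45.1 ± 3.10 CPM in WT (log2 fold change -0.24), and Psmb2 missed the threshold at 39.6 ± 3.10 CPM in KO and 43.1 ± 2.73 CPM in WT (adjusted p = 0.138).

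All of the proteolytic beta subunits fell. Psmb5 (chr14:54614119-54618022, minus strand), which cuts after hydrophobic residues, had 50.7, 45.4, 50.3, 46.8 and 50.6 CPM in KO, against 53.8 to 62.5 CPM (median 57.0) in WT (log2 fold change -0.24 ± 0.05, adjusted p = 0.00361). Psmb6, which cuts after acidic residues, averaged 52.5 ± 1.80 CPM in KO and 58.7 ± 3.50 CPM in WT (log2 fold change -0.16, adjusted p = 0.0224). Psmb7, which cuts after basic residues, averaged 72.3 ± 6.10 CPM in KO and 83.2 ± 4.62 CPM in WT (log2 fold change -0.21). The groups did not overlap for Psmb5 and did for Psmb6 and Psmb7.

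Their immunoproteasome counterparts, which replace these proteolytic subunits in immune cells and after interferon, did not pass the test. Psmb8 and Psmb9 were scarce, with 5.59 ± 0.551 CPM in KO and 5.95 ± 1.44 CPM in WT for Psmb8, and 2.62 ± 0.464 CPM in KO and 2.71 ± 0.621 CPM in WT for Psmb9, or 18 to 42 and 9 to 20 counts per library. Psmb10 had 52.2, 46.4, 49.4, 50.9 and 47.6 CPM in KO, against 35.1 to 59.8 CPM (median 47.8) in WT (log2 fold change 0.05 ± 0.10, adjusted p = 0.721). Its WT libraries were spread more widely than its KO libraries and enclosed them all. The SE of Psmb8 and Psmb9, 0.17 and 0.20, were several times those of the beta ring genes, so a fall of the beta ring's size was not detectable in them at this depth. Psmb11, the beta subunit of the thymus, was not analysed here.

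Beside these 3, most of the microglial markers were lower in KO, and genes of the interferon response moved both ways. Of 10 microglial markers 7 fell and 0 rose, beside 14.4% of all tested genes lower and 15.3% higher. They summed to 569 to 606 CPM in KO and 638 to 792 CPM in WT, without overlap. None of the 10 was at 0. Of 14 tested interferon and antigen presentation genes 3 rose and 3 fell, and they summed to 289 to 317 CPM in KO and 290 to 323 CPM in WT. With density offsets 4 of the 10 microglial markers fell and 0 rose, and of the 14 interferon genes 2 fell and 1 rose. Of all tested genes 8.02% were then lower and 8.43% higher. Without offsets Irf9, a subunit of the interferon-activated transcription factor complex, rose to 20.6 ± 1.71 CPM in KO, against 15.5 ± 2.12 CPM in WT. B2m, the light chain of MHC class I, fell to 49.4 ± 4.48 CPM in KO, against 62.5 ± 4.05 CPM in WT. With density offsets Irf9 missed the threshold (adjusted p = 0.0638), while B2m was still lower (adjusted p = 0.0185). In the fit with library totals neither gene passed. The part of these cell type and interferon differences in the proteasome values was not tested.

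**Figure D2:**
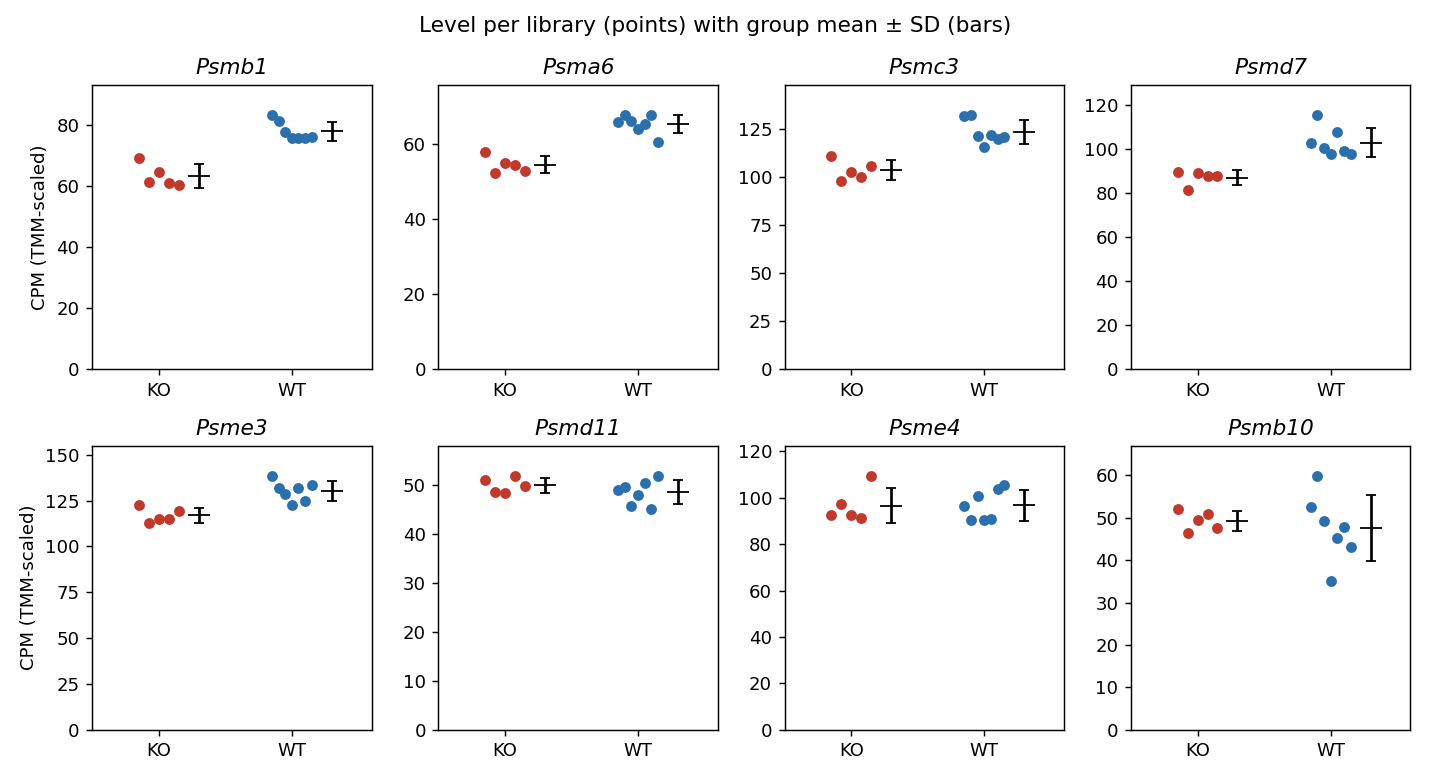
TMM-scaled CPM of 8 proteasome genes in each library, KO left and WT right, with the group mean and SD beside the points and axes that start at 0. The groups are apart in Psmb1, Psma6, Psmc3, Psmd7 and Psme3 and overlap in Psmd11, Psme4 and Psmb10.

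In the base of the regulatory particle 6 of 6 ATPases and 3 of 3 other subunits fell. Psmc3 (chr2:91054009-91066369, plus strand) had 110.9, 98.0, 102.6, 99.8 and 105.6 CPM in KO, against 115.7 to 131.9 CPM (median 121) in WT, a log2 fold change of -0.25 ± 0.04 (SE; adjusted p = 0.00116). Psmc2 (chr5:21785283-21803787, plus strand) had 75.7, 69.5, 74.5, 70.9 and 71.3 CPM in KO, against 77.0 to 92.1 CPM (median 87.7) in WT (log2 fold change -0.25 ± 0.05, adjusted p = 0.00206). Neither gene's groups overlapped, and in Psmc2 KO 1 was just under the lowest WT library. Psmc1 averaged 89.4 ± 4.75 CPM in KO and 105 ± 5.34 CPM in WT (log2 fold change -0.23). Psmc6 averaged 59.8 ± 3.00 CPM in KO and 69.6 ± 4.05 CPM in WT (log2 fold change -0.22). The groups were apart for Psmc6 and overlapped for Psmc1. The other 2 ATPases had log2 fold changes of -0.13 (Psmc4) and -0.20 (Psmc5). Among the other base subunits, Psmd4, a receptor for ubiquitin chains, fell most, to 78.3 ± 3.69 CPM in KO, against 89.4 ± 3.75 CPM in WT (log2 fold change -0.19, adjusted p = 0.00423). The large scaffold subunits Psmd1 and Psmd2 had smaller differences of -0.10 and -0.14 (adjusted p = 0.0319 and 0.0113), and that of Psmd1 missed the threshold without KO 2, 3, 4 or 6 or WT 1, 5 or 6 in turn (adjusted p up to 0.0851).

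The lid was less uniform, with 5 of 8 genes lower. Psmd7 (chr8:107580381-107588464, minus strand), the partner of the lid's deubiquitinase, had 89.4, 81.2, 89.2, 87.8 and 87.6 CPM in KO, against 97.6 to 115 CPM (median 101) in WT (log2 fold change -0.24 ± 0.05, adjusted p = 0.00210). Psmd14, the deubiquitinase itself, averaged 64.3 ± 3.42 CPM in KO and 73.5 ± 3.20 CPM in WT (log2 fold change -0.19, adjusted p = 0.00615). The groups were apart in both. The scaffold subunits Psmd6, Psmd8 and Psmd12 fell with log2 fold changes of -0.16, -0.14 and -0.15. Of the other scaffold subunits, Psmd3 was near the threshold (log2 fold change -0.12, adjusted p = 0.0555; 0.00500 without KO 1 and 0.0235 without WT 4), and Psmd13 did not pass (-0.09, adjusted p = 0.165). Psmd11 (chr11:80428615-80473248, plus strand) was the one constitutive gene with a positive fold change, at 50.9, 48.5, 48.4, 51.7 and 49.7 CPM in KO, against 45.0 to 51.8 CPM (median 49.0) in WT (log2 fold change 0.04 ± 0.05, adjusted p = 0.589). Its KO libraries all lay inside the WT range.

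Of the genes that assemble or modify the particle, only Psme3 fell. The base assembly chaperones Psmd5, Psmd9 and Psmd10, which hold the ATPases before the base is complete, had log2 fold changes of 0.02, -0.11 and -0.06 and did not pass. Nor did the core assembly chaperones, which act as the pairs Psmg1 with Psmg2 and Psmg3 with Psmg4. Psmg2 came nearest, at 22.5 ± 0.756 CPM in KO and 25.0 ± 2.21 CPM in WT (adjusted p = 0.108), and Psmg4, the scarcest at 7.17 ± 0.753 CPM in KO and 8.10 ± 1.28 CPM in WT, had a log2 fold change of -0.18 ± 0.13. Psmf1, a regulator that binds the core particle, had 65.8 ± 2.83 CPM in KO and 65.6 ± 6.23 CPM in WT.

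The activators cap the core particle in place of the regulatory particle. Psme3 (chr11:101316213-101323537, plus strand), the nuclear form, had 122.5, 112.6, 114.9, 114.9 and 119.2 CPM in KO, against 122.8 to 138.3 CPM (median 132) in WT (log2 fold change -0.16 ± 0.04, adjusted p = 0.00696). Its KO 1 level was just under the lowest WT library and the other KO libraries were further below. Psme4, another nuclear activator, had 92.7, 97.2, 92.6, 91.2 and 109 CPM in KO, against 90.2 to 106 CPM (median 96.5) in WT, with a log2 fold change of -0.0021 ± 0.06. Psme1 and Psme2, interferon-inducible partners in 1 activator, had log2 fold changes of 0.04 ± 0.08 and -0.12 ± 0.10 and did not pass. Psme2 may share reads with its processed copy Psme2b, a single exon on chromosome 11, which did not pass either (log2 fold change -0.12, adjusted p = 0.292).

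**Figure D3:**
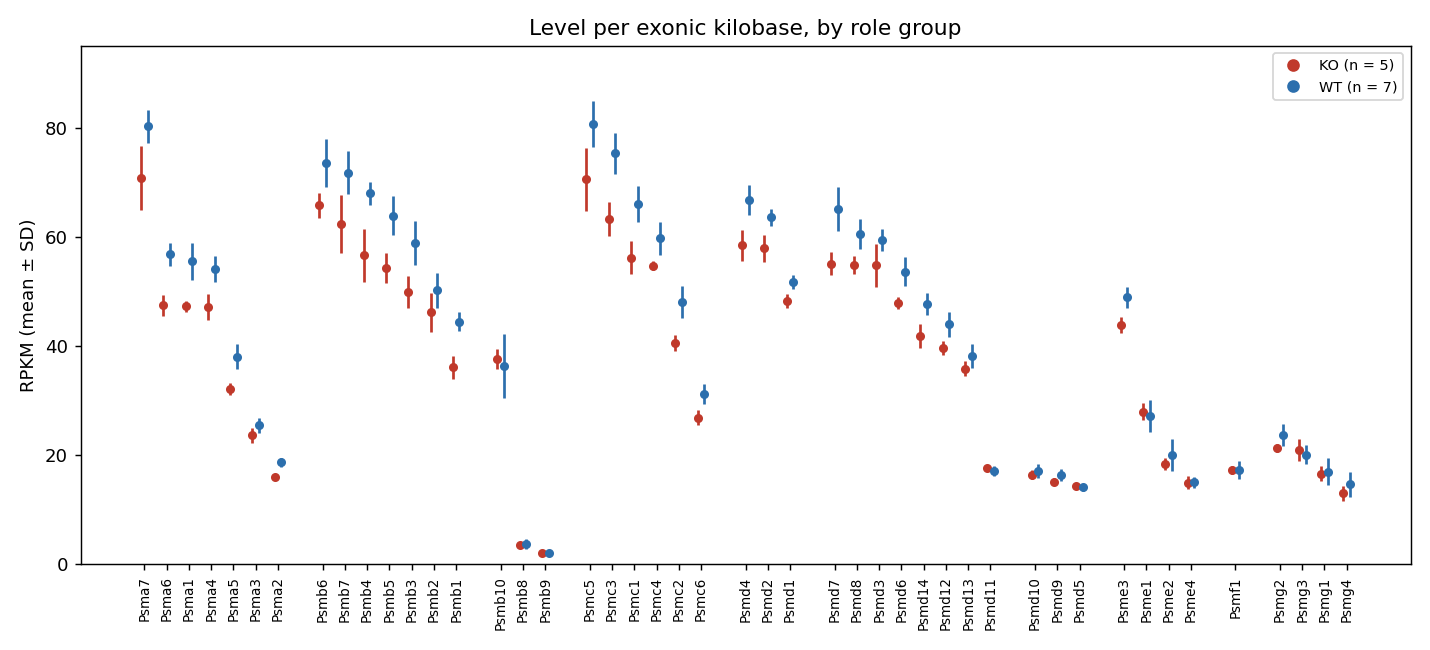
Mean and SD of the level per exonic kilobase (RPKM) in KO (n = 5, left of each pair) and WT (n = 7), by role group and sorted by the WT level within each. The rings, base and lid hold the highest levels, with the exception of a few low members such as Psma2 and Psmd11, and Psme3 is the highest of the remaining genes.

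Levels can be compared between genes only per length. On the RPKM scale, with exonic lengths from GENCODE M21, the constitutive genes ran from 17.5 ± 0.513 RPKM in KO and 17.0 ± 0.867 RPKM in WT for Psmd11 to 70.5 ± 5.75 RPKM in KO and 80.7 ± 4.20 RPKM in WT for Psmc5. The 15 others ran from 1.94 ± 0.343 RPKM in KO and 2.00 ± 0.459 RPKM in WT for Psmb9 to 43.9 ± 1.49 RPKM in KO and 48.9 ± 1.98 RPKM in WT for Psme3. Psme3, the one gene outside the constitutive subunits that fell without offsets, was thus within their range. Others within that range did not pass, such as Psmb10 at 36.3 ± 5.90 RPKM and Psme1 at 27.1 ± 2.91 RPKM in WT. An exonic length that includes unused exons lowers a level per length, as it may for Psma2, annotated with 2911 exonic bases.

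Fold changes across the whole table followed how densely a gene was covered by reads, and the proteasome genes sit among the dense ones. Count density, the mean count per exonic base over the 12 libraries, had a median of 0.241 in the 46 genes and 0.0775 over all tested genes with a length, and 20 of the 46 were in the top 10%. Density and log2 fold change had a Spearman rho of -0.53 over 14100 genes and -0.58 over the 46, a description only, since all points share the 12 libraries. The constitutive genes had a median density of 0.282 and the 15 others one of 0.0907. With offsets that remove the trend with density in each library, 7 of the 46 genes (15.2%) were lower and 0 higher, beside 8.02% of all tested genes lower and 8.43% higher. The median log2 fold change of the 46 was then -0.07, beside 0.0019 over all tested genes, and 35 of 46 had a negative one. Offsets that remove the trend with the mean count alone, without the exonic length, were added after the data were seen and left 28 of the 46 genes (60.9%) lower and 0 higher, beside 15.4% of all tested genes lower and 13.3% higher. How far the trend with density comes from the sequencing and how far from the tissue was not tested.

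Lower in KO both without and with the offsets were 6 genes: Psma2, Psma5 and Psma6 of the alpha ring, Psmb1 of the beta ring, and the ATPases Psmc2 and Psmc6. With offsets their log2 fold changes were -0.28 ± 0.05, -0.18 ± 0.05, -0.13 ± 0.04, -0.22 ± 0.04, -0.14 ± 0.04 and -0.19 ± 0.04 in that order, with adjusted p of 0.00148, 0.0169, 0.0414, 0.00219, 0.0425 and 0.0118. The seventh gene called with offsets was the chaperone Psmd9 (-0.18 ± 0.05, adjusted p = 0.0400), which shares 1849 exonic bases with the antisense gene Gm26745. Of the 27 genes lower without offsets, 7 had a positive fold change with them, none past the threshold: Psma7, Psmb6, Psmc4, Psmc5, Psmd1, Psmd2 and Psmd8. Psma2, Psmd11 and Psmf1, picked after their values were seen for a nearly equal density of 0.0935, 0.0930 and 0.0931, had log2 fold changes without offsets of -0.23, 0.04 and 0.0041. Densities, and so the offsets, rest on annotated exonic lengths, and that of Psma2 (2911 bases) may include unused exons.

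**Figure D4:**
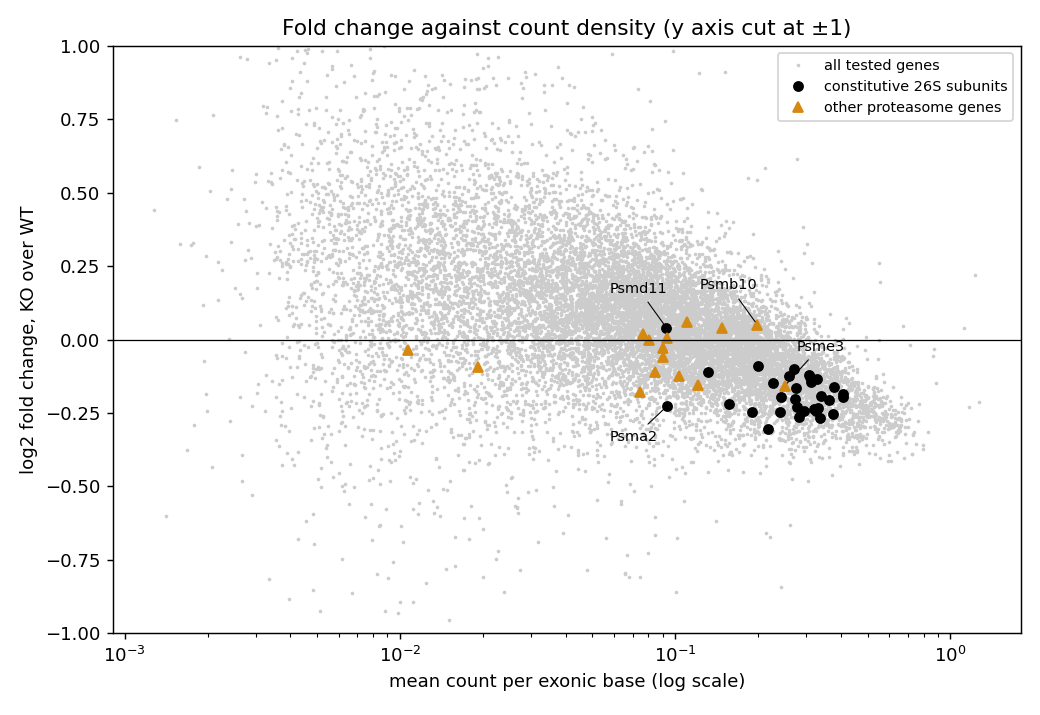
Log2 fold change, KO over WT, without offsets, against count density on a log axis, for all tested genes (grey), the 31 constitutive subunits (black circles) and the 15 other proteasome genes (triangles). The grey cloud slopes down to the right, most constitutive subunits lie at its dense end, and Psma2 lies below Psmd11 at nearly the same density by annotated length.

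Sequencing depth also moved with genotype, since 4 of the 5 KO libraries had higher totals than any WT library. Before any scaling, the mean library total in KO was 1.24 times that in WT, the mean summed count of the constitutive genes 1.11 times, at 11822 to 15452 counts in KO and 11734 to 14321 counts in WT, and that of the 15 others 1.22 times. The falls in CPM of the constitutive genes were thus raw counts that increased less than the library total. In KO 1, whose total of 4990643 counts was within the WT range, 19 of the 27 genes that fell were below the whole WT range, compared with 26, 27, 27 and 26 in KO 2, 3, 4 and 6. The 8 that were inside it were Psma4, Psma7, Psmb4, Psmb7, Psmc1, Psmc5, Psmd2 and Psmd8. The median log2 ratio of the constitutive genes to the mean of the WT libraries was -0.11 in KO 1. It was -0.27, -0.19, -0.23 and -0.17 in KO 2, 3, 4 and 6. The WT libraries, each set against the mean of the other WT libraries, were at -0.08 to 0.08. KO 1 was the KO library nearest to WT and still below all 7 of them. With the library total as a covariate in the edgeR fit, 0 of the 46 genes were lower at an adjusted p under 0.05, where 0.0771% of all tested genes were lower and 0.588% higher. The 46 genes then had a median log2 fold change of -0.12, 10 of them (21.7%) were lower at an unadjusted p under 0.05, beside 5.67% of all tested genes, and 0 of the 27 changed sign. The SE of those 27 were 1.19 to 1.74 times as large in that fit. With 4 of the 5 KO totals above every WT total, depth and genotype cannot be told apart, for single genes or for all 46.

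**Figure D5:**
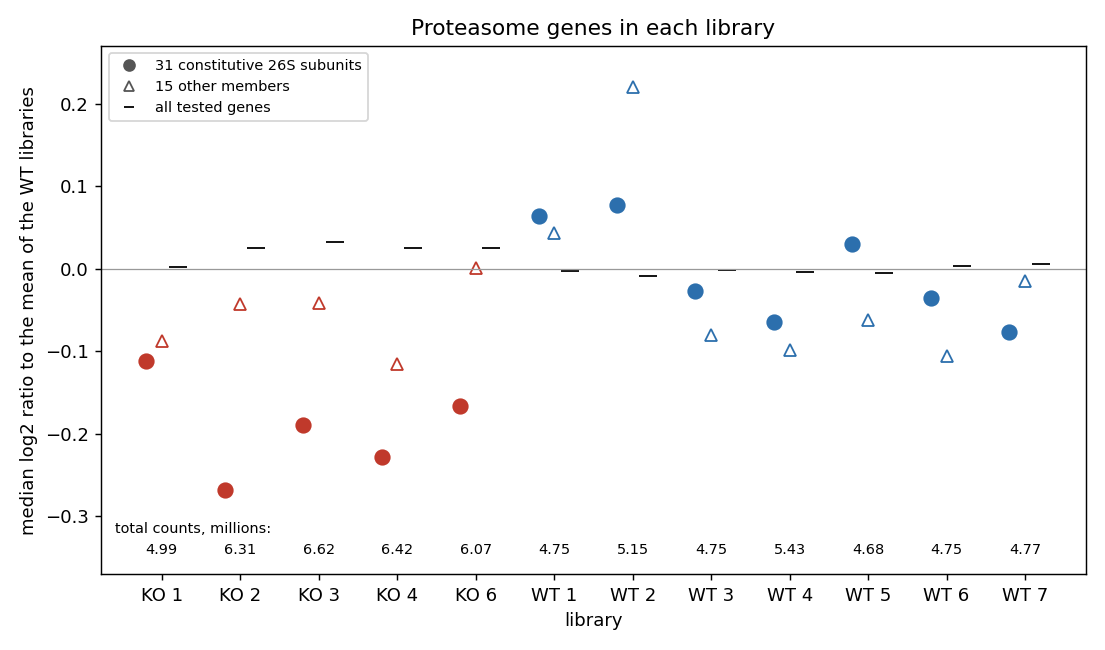
Median log2 ratio to the mean of the WT libraries in each library, for the 31 constitutive subunits (circles), the 15 other proteasome genes (open triangles) and all tested genes (dashes), with the library total written under each. A WT library is set against the mean of the other WT libraries. The constitutive genes are lower in all 5 KO libraries, at -0.27 to -0.11, than in any WT library, and the triangles of the 2 groups overlap.

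Neither of the short motifs searched was common to the promoters of the genes that fell. The 250 bases before the start of a gene, from RefSeq on GRCm38.p6, could be taken for 39 of the 46 genes, 3 of them with more than 1 start. They were searched on both strands for TGACNNNGC, the core of the antioxidant response element bound by the transcription factors Nfe2l1 and Nfe2l2, and for CCAAT, the box bound by nuclear factor Y. TGACNNNGC was present for 5 of 39 proteasome genes (12.8%) and for 13.9% of 10866 tested genes with a promoter. CCAAT was present for 13 of 39 proteasome genes (33.3%) and for 40% of the 10866. Both shares were thus slightly under those of the tested genes. Among the genes lower in KO, 4 of 23 (17.4%) had TGACNNNGC and 10 of 23 (43.5%) had CCAAT. Among those not passing, the counts were 1 of 16 (6.25%) and 3 of 16 (18.8%). Matches are letters in a window and say nothing of binding. The 2 motifs overlapped in 0 proteasome promoters. The promoters of Psma2, Psmb5, Psmc6 and Psmd11 are printed 5′ to 3′ on the gene's strand, with matches on either strand in capitals: Psmb5 and Psmc6 for TGACNNNGC, Psma2 for a CCAAT box in a gene that was lower with and without offsets, and Psmd11 as the constitutive gene that was not lower, with neither motif. They span chr13:14612992-14613241 (Psma2, plus strand), chr14:54617996-54618245 (Psmb5, minus strand), chr14:45329574-45329823 (Psmc6, plus strand) and chr11:80428365-80428614 (Psmd11, plus strand).
Psma2: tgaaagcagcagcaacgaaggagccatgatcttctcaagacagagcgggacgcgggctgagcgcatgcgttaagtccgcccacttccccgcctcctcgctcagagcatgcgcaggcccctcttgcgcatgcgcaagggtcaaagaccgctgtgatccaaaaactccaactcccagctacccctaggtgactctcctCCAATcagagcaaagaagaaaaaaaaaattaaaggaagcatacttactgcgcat
Psmb5: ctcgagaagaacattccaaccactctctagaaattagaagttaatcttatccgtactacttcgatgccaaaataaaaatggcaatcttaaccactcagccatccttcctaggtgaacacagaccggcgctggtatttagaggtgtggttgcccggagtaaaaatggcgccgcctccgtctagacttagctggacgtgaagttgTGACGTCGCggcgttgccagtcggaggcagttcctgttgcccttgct
Psmc6: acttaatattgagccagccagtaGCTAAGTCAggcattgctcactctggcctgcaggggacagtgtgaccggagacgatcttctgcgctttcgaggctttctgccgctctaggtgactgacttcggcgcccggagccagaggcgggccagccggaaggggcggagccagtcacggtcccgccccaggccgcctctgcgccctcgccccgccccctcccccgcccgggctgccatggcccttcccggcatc
Psmd11: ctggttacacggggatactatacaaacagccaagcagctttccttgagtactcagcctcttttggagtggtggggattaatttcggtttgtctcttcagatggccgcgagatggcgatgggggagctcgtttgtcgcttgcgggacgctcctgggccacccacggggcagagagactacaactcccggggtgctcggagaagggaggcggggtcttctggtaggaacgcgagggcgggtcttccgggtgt

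Without offsets, a larger share of the genes that feed or regulate the proteasome fell than among all tested genes. The share that rose was near that of all tested genes. Of 42 listed, 41 were tested (the regulatory particle chaperone Paaf1 was not analysed here), 20 fell (48.8%) and 5 rose (12.2%), beside 14.4% and 15.3% of all tested genes, with a median log2 fold change of -0.14. Pomp, the chaperone that matures the beta ring, had 48.5, 42.6, 45.3, 44.6 and 44.1 CPM in KO, against 51.1 to 60.1 CPM (median 55.1) in WT (log2 fold change -0.31 ± 0.05, adjusted p = 8.15e-04). Rad23b, which shuttles ubiquitylated proteins to the proteasome, averaged 164 ± 13.4 CPM in KO and 206 ± 9.14 CPM in WT (log2 fold change -0.33). In both genes every KO library was below every WT library. The ubiquitin-conjugating enzyme Ube2d3 averaged 141 ± 8.52 CPM in KO and 176 ± 3.54 CPM in WT (log2 fold change -0.32, adjusted p = 1.25e-04), and its relative Ube2d2a 119.8 ± 9.06 CPM in KO and 139.6 ± 2.16 CPM in WT (log2 fold change -0.22). Usp14, the deubiquitinase that docks on the base, averaged 117 ± 4.13 CPM in KO and 134 ± 5.46 CPM in WT (log2 fold change -0.20). These 5 were lower with density offsets too. Over the whole list 14 of the 41 genes fell and 6 rose with those offsets, beside 8.02% and 8.43% of all tested genes. The list then had a median log2 fold change of -0.00063. With the library total as a covariate 0 passed in either direction, beside 0.0771% of all tested genes lower and 0.588% higher.

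Hsf1, the transcription factor of the heat shock response, was among the 5 genes that rose, to 51.9 ± 2.18 CPM in KO, against 41.4 ± 3.83 CPM in WT (log2 fold change 0.32 ± 0.06, adjusted p = 0.00197), and its groups did not overlap. The other 4, named after their values were seen, were the ubiquitin-activating enzyme Uba6 (log2 fold change 0.33), the ubiquitin ligases Ubr4 (0.32) and Huwe1 (0.22), and Ddi2 (0.40), the protease that activates Nfe2l1. Uba6 and Ubr4 passed in all 12 fits that left out 1 library, Huwe1 in only 3 (adjusted p up to 0.0952) and Ddi2 in only 4 (up to 0.0843). Ddi2 also missed the threshold with density offsets (adjusted p = 0.337) and mean-count offsets (0.0959). Nfe2l1, the main activator of proteasome genes when the proteasome is inhibited, was named in the same way. It had 387, 341, 350, 359 and 365 CPM in KO, against 366 to 388 CPM (median 381) in WT, and did not pass (log2 fold change -0.07, adjusted p = 0.209). With density offsets it was higher in KO by 0.13 on the log2 scale (adjusted p = 0.00392). Nfe2l2, the antioxidant response factor, did not pass either (log2 fold change 0.12), nor did the ligases Stub1 (-0.16) and Ube3a (0.11) or the ubiquitin shuttle cofactor Nploc4 (0.09).

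Ubb and Rps27a, also named after their values were seen, split the KO libraries. Ubb, a polyubiquitin gene, had 56.2 CPM in KO 1 and 39.2, 39.5, 39.2 and 44.0 CPM in KO 2, 3, 4 and 6, against 50.2 to 59.2 CPM (median 56.3) in WT (log2 fold change -0.36 ± 0.08, adjusted p = 0.00546). Rps27a, which encodes ubiquitin fused to a ribosomal protein, had 23.1 CPM in KO 1 and 18.4, 17.2, 17.5 and 17.6 CPM in the other KO libraries, against 21.5 to 25.0 CPM (median 23.3) in WT (log2 fold change -0.33 ± 0.08, adjusted p = 0.00790). In both genes KO 1 was inside the WT range and the other KO libraries were below it. Their raw counts hardly differed between libraries, at 252 to 275 in KO and 262 to 282 in WT for Ubb, and 107 to 118 in KO and 100 to 125 in WT for Rps27a, so that their CPM were lower where the library total was higher. In the fit with library totals the log2 fold change was 0.01 for Ubb and -0.08 for Rps27a, beside a median of -0.13 over the 31 constitutive subunits.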

How the data were processed

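Frontal cortex RNA from 12 mice was sequenced, with 1 library per mouse. Per the labels' protocols, it was isolated with Trizol and a column kit and made into Illumina libraries. The authors deposited whole-number counts of reads for every gene and mouse, without scaling or pooling. The submitters' processing notes name STAR as aligner and mm10 as genome. How reads were counted, with which strand setting, and whether duplicates were removed was not stated there. The counts of proteasome genes whose exons overlap another gene are therefore uncertain: Psma4, Psma5, Psmb5, Psmb7, Psmb8, Psmb9, Psmc3, Psmd1, Psmd3, Psmd9, Psmd13, Psme1 and Psmg3.

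All genes were fitted together (edgeR 4.0.16, R 4.3.3). Low genes were removed by filterByExpr, libraries were scaled by TMM, and group was the only term of the quasi-likelihood model, with Benjamini-Hochberg adjustment over all tested genes at 0.05. A positive log2 fold change means higher in KO. The biological coefficient of variation was 8.11%. The permutation test of Upf3b used a pseudocount of 0.5 CPM. Nothing says that the mice came from separate litters, so p-values measure the spread between these mice. Exonic lengths are from GENCODE M21 on the same build, in which 14437 genes were matched by symbol, 420 by RefSeq accession and 52 not at all. Density offsets were loess fits (span 0.3) of each library's log ratio on count density. Some of the fits, not that with mean-count offsets, were run on simulated counts with known changes. Those counts held no trend of fold change with density or depth, so the runs do not show how the fits handle such a trend.

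Alternatives were other scaling factors, DESeq2 1.42.0, limma-voom (limma 3.58.1), other filters, robust dispersion, density and mean-count offsets, adjustment for library totals, the mouse number as a block, and each library left out. In each role group the 4 passing genes with the smallest p, and up to 2 that did not pass, were described, with every gene passing both without and with density offsets, and of the pathway list 6 passing and 4 not passing. The members and lists were chosen with earlier results of these data known. Some genes of the pathway list are counted but not reported here by name.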

Additional observations from a re-analysis of the deposited data

Results flagged for a closer look

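In 9 cases 1 library stood apart from the others of its group by Dixon's test, which sets apart about 1 in 20 groups by chance. Of 92 groups of proteasome gene levels 4 were set apart, and of 36 groups of Upf3b and named pathway genes 5. The 36 include genes named after their values were seen, among them Ubb, Rps27a and Uba6. Their share can therefore not be set against that rate. Psma5 was at 42.1 CPM in KO 1 and at 38.6 to 39.5 CPM in the other KO libraries. Psmb7 was at 83.0 CPM in KO 1 and 68.2 to 70.8 CPM in the others. Psmd7 was at 81.2 CPM in KO 2 and 87.6 to 89.4 CPM in the others, and Psmg3 at 15.4 CPM in KO 4 and 18.4 to 19.6 CPM in the others. Among the pathway genes, KO 1 was the high library for Ubb (56.2 CPM, others 39.2 to 44.0) and Rps27a (23.1 CPM, others 17.2 to 18.4). Hsf1 was at 55.7 CPM in KO 6 and 50.3 to 51.8 CPM in the others, and Nfe2l2 at 38.9 CPM in KO 2 and 31.3 to 33.3 CPM in the others. Uba6 was at 50.9 CPM in WT 4 and 36.2 to 41.3 CPM in the other WT libraries. What sets these libraries apart was not tested, and KO 1 is the KO library with the lowest total.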

How the results depend on the processing

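Under DESeq2 size factors, upper-quartile factors, DESeq2's Wald test or no filter, 28 proteasome genes were lower in KO, with Psmd3 added, and under limma-voom, robust dispersion or a filter of 1 CPM in 5 libraries 27. With density offsets 7 proteasome genes were lower, all genes gave 1188 higher and 1131 lower calls, against 2183 and 2050 without them, and the median of the proteasome genes was -0.072. Adjusted for library totals, the counts were 0 lower proteasome genes, 0 higher and 0 lower pathway genes, and 84 higher and 11 lower of all genes. Mean-count offsets, which use no exonic length and were chosen after seeing the data, gave 28 lower, 26 of them shared. Correlations of same-numbered KO and WT libraries ran from -0.38 to 0.14, in no case the highest for the KO library. They gave no sign of pairing by mouse number but, taken over all genes, cannot exclude it. The fit with the number as a block gave 18 lower proteasome genes, 3 higher pathway genes and, of all genes, 1129 higher and 1186 lower. Leaving out each library in turn gave 24 to 28 lower proteasome genes, 3 to 5 higher and 18 to 22 lower pathway genes, 1585 to 2420 higher and 1544 to 2467 lower of all genes, and a proteasome median of -0.18 to -0.14. Of the 27 genes 23 passed in all 12 of these fits, while Psmb6 missed the threshold without KO 3 or KO 4, Psmc4 without KO 2, 3 or 4 or WT 1, Psmd12 without KO 2 (adjusted p up to 0.0663, 0.0700 and 0.0530), and Psmd1 in 7 fits. Only 3 pathway genes were higher without KO 1, 3, 4 or 6 or WT 1, 3 or 5. Huwe1 missed the threshold without any single library other than WT 2, 4 or 6, and Ddi2 without any other than KO 2 or WT 4, 6 or 7. Log2 fold changes of the opposite sign came with density offsets for Psma7 (0.013), Psmb6 (0.025), Psmc4 (0.023), Psmc5 (0.0022), Psmd1 (0.027), Psmd2 (0.026), Psmd3 (0.028), Psmd8 (0.0096), Psmd11 (-0.011), Psmd5 (-0.058), Psmf1 (-0.047), Nfe2l2 (-0.00063) and Nfe2l1 (0.13). They came with the library total for Psmd3 (0.033), Psme1 (-0.12), Psme4 (0.056), Stub1 (0.042), Nfe2l2 (-0.036), Ubb (0.010) and Nfe2l1 (0.041), with mean-count offsets for Psme1 (-0.014), Psme4 (0.0047), Psmf1 (-0.0070), Psmg3 (-0.029) and Nfe2l1 (0.037), and with the block for Psmb9 (0.052), Psmd5 (-0.0035), Psme1 (-0.012) and Psme4 (0.0043). Psmf1 was at -0.015 by DESeq2's Wald test, -0.015 with DESeq2 size factors, -0.012 with no filter and -0.0034 with upper-quartile factors. Without KO 2 and WT 4, Psmb10 was at -0.0075, Psmf1 at -0.039 and Psmg3 at -0.0045. Without single libraries the sign changed within -0.14 to 0.031 for Psmb9, -0.051 to 0.020 for Psme4, -0.081 to 0.032 for Psmg1, -0.049 to 0.032 for Psmf1 and -0.029 to 0.12 for Psmb10. The cause of these changes was not tested. Counts of 9 to 42 per library limit Psmb8 and Psmb9.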
